A study of Mus musculus with 13 samples.

Results

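Slc4a1, Hbb-b1, Hba-a1 and Alas2, a set of genes best known from red blood cells, were followed in the livers of male mice that had been given dichloroacetic acid (DCA), phenobarbital (PB) or plain water early in life. The members were named in advance by symbol, with earlier results on these same arrays in view, and were found by matching each symbol to its row. All 4 were present among the 18138 genes of the deposited table, and all 4 were among the 8431 genes (46.5%) that were detected on at least 4 arrays and were tested.

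The mice were B6C3F1, a cross of C57BL/6 and C3H parents, and the labels record an age of 7 days. DCA, a by-product of water disinfection, was given in drinking water at 3.5 g/L for 10 weeks and followed by 90 weeks of deionised water in 4 mice. PB, a sedative that induces liver enzymes, was given in the same way at 0.06% to 5 mice, and 4 control mice drank deionised water alone. RNA from archived frozen liver of each mouse was labelled with biotin and hybridised to 1 Illumina bead array, so that 13 arrays gave 13 separate animals. The replicate numbers below only name arrays within a group. No source used here says whether the livers were cleared of blood before freezing or whether the piece taken held tumour tissue.

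Red cells are made in the fetal liver and, in adults, mainly in bone marrow and, in mice, spleen. Mature mammalian red cells have no nucleus, but the youngest circulating forms, the reticulocytes, still carry messenger RNA, chiefly of globins. Hba-a1 and Hbb-b1 encode the alpha and beta chains of adult haemoglobin. Slc4a1 encodes band 3, the anion exchanger that swaps chloride for bicarbonate and ties the red cell membrane to its skeleton. Alas2 encodes the erythroid form of 5-aminolevulinate synthase, which begins haem synthesis, whereas Alas1 is the form used in hepatocytes and other tissues. In a homogenised liver, fewer cells of a type and less RNA per cell cannot be told apart.

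Mean raw intensity per array ran from 188.6 to 462 units and the number of genes detected from 7141 to 8458, where a gene counts as detected if its detection p-value is below 0.05. The median correlation between arrays over all tested genes was 0.972 within groups and 0.971 between groups. Hepatocyte transcripts were high on every array, with Ttr, the thyroid hormone carrier transthyretin, between 13.71 and 14.07 and Apoa1, the main protein of high-density lipoprotein, between 13.48 and 14.35 on the log2 scale. The Alb row was detected on only 4 arrays, at levels of 4.33 to 4.88 over all arrays, close to background. It still passed the filter and is among the 7 tested genes of the hepatocyte list used below. PB replicate 1 stood apart on the second principal component, which held 21.0% of the variance.

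Of the genes that define erythroid precursors and were looked up by name, few were measurable. Gata1, the master transcription factor of the lineage, was not detected on any array, nor were the membrane and blood group genes Spnb1, Epb4.2, Rhd and Kel, the precursor genes Trim10 and Hemgn, the alpha-globin chaperone Eraf or the embryonic globins Hbb-y and Hba-x. Ank1, the red cell ankyrin, and the embryonic globin Hbb-bh1 were each detected on 1 array. Klf1, the transcription factor that drives adult beta-globin, was detected on all 13 arrays at log2 levels of 5.48 to 6.49. Epor, the erythropoietin receptor, was detected on 10 arrays. Rhag, a red cell ammonium channel, was detected on 7, with a highest level of 4.59, close to background. The label "erythroid" thus describes what the members are known for. Of the markers named in this paragraph, only Klf1, Epor and Rhag were detected on more than 1 array. Other genes of the erythroid lists described below were detected too, such as Epb4.1 and Gypc on 12 arrays, Xk on 10, Lyl1 on 8 and Nfe2 on 5. Besides the members, 9 of 20 membrane and cytoskeleton genes and 7 of 14 transcription and signalling genes in the table were tested.

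Levels below are log2 intensities after background correction and quantile normalisation, and each is comparable only with the same gene on other arrays. The lowest level at which a gene measured by a single probe was detected lay between 4.61 and 4.84, depending on the array. Some rows that combine several probes were detected at lower levels. The PB and DCA groups were each set against control when the members were chosen, so those differences are given as a description, with a standard error (SE) and no test. The difference between DCA and PB did not choose the members and was tested with limma.

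Slc4a1, the band 3 gene, was highest in the control livers. Its levels in control replicates 1 to 4 were 5.53, 6.01, 5.18 and 6.80. In the DCA mice they were 4.73, 4.88, 4.60 and 5.06. In the PB mice they were 4.64, 5.06, 4.59, 4.74 and 4.36. Every exposed mouse lay below every control mouse, and the DCA and PB values overlapped. The gene was detected on 4 of 4 control arrays, on 3 of 4 DCA arrays (not replicate 3) and on 2 of 5 PB arrays (replicates 2 and 4), so the lower levels sit at the limit of the assay. The same separation was present in the deposited intensities before any correction, which ran from 136.6 to 161.9 units in controls, from 100.1 to 131.6 in DCA and from 96.9 to 124.0 in PB.

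Hbb-b1, the adult beta-globin gene, was detected on all 13 arrays. Its levels were 7.69, 8.01, 7.32 and 8.56 in the controls. They were 6.76, 6.81, 6.08 and 7.44 in the DCA mice. They were 6.64, 7.31, 7.06, 7.17 and 6.48 in the PB mice. All 5 PB values fell below all 4 control values, although the highest PB mouse (7.31) and the lowest control (7.32) almost met. DCA replicate 4 was the exposed mouse that reached into the control range. In the deposited intensities before any correction, PB replicate 4 (302 units) and DCA replicate 1 (335) lay above the lowest control, replicate 2 (299). The separation of PB from control was thus present only after normalisation.

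Hba-a1, the adult alpha-globin gene, was also detected on every array, with deposited intensities from 1983 to 12756 units. Its levels were 13.11, 12.71, 12.29 and 12.94 in the controls. They were 12.26, 11.13, 11.52 and 12.59 in the DCA mice. They were 11.37, 12.79, 12.40, 11.98 and 11.54 in the PB mice. The groups overlapped: DCA replicate 4 and PB replicates 2 and 3 lay above the lowest control, and the remaining 6 exposed mice lay below all controls.

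Alas2, the erythroid haem synthesis gene, followed another order. Its levels were 9.24, 11.05, 11.05 and 9.96 in the controls. They were 11.21, 11.18, 10.58 and 10.51 in the DCA mice. They were 8.96, 10.57, 9.43, 10.41 and 10.28 in the PB mice. Control replicates 2 and 3 sat with the 2 highest DCA mice, while control replicate 1 was the second lowest of all 13 mice, above PB replicate 1 alone. Control replicate 4, the highest of all mice for Slc4a1 and Hbb-b1, ranked 10 from the top for Alas2, and DCA replicate 2, the lowest mouse for Hba-a1, ranked 2 from the top for Alas2.

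**Figure D1:**
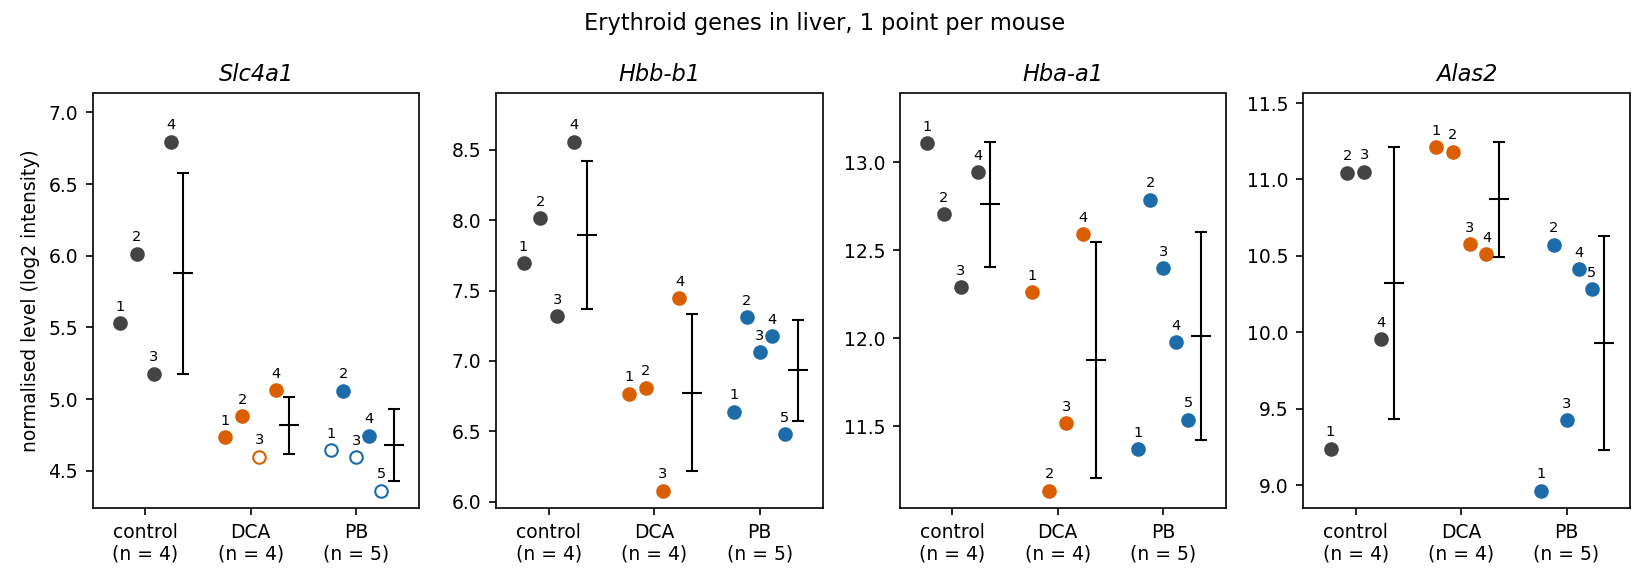
Normalised log2 intensity of each gene (vertical axes, a separate range in each panel) in the 4 control, 4 DCA and 5 PB mice. Each point is 1 mouse with its replicate number, open points were not detected, and bars show the group mean ± SD. For Slc4a1 every exposed mouse lies below every control, whereas for Alas2 the 3 groups overlap.

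The RefSeq table of promoters (build GRCm38.p6) held an entry for 2 of the 4 members, Hba-a1 and Alas2, and their 250 bases upstream of the annotated start are shown because the r between these genes was only -0.12 across the mice. Slc4a1 and Hbb-b1 are named only. Erythroid promoters are known for GATA words, bound by Gata1, and CACCC-type words, bound by Klf1. The search, on both strands, was for the GATA word AGATAA, its variant TGATAA, the CACCC-type word CCNCNCCC and the CCAAT box, a set chosen from textbook knowledge with the sequences in view. Capitals mark the matches. The Hba-a1 window is chr11:32283422-32283671 and the Alas2 window is chrX:150547167-150547416, both on the plus strand.
Hba-a1: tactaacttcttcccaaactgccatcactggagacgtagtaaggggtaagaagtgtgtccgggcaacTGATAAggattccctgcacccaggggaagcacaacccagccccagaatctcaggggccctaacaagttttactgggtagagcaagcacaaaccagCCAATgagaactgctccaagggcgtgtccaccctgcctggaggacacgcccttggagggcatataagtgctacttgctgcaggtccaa
Alas2: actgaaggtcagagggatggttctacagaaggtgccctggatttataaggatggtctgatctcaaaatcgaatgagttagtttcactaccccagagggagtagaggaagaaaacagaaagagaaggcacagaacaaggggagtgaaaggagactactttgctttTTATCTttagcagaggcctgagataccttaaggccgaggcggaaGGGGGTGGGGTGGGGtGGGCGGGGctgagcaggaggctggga

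The Hba-a1 window held TGATAA 183 bases before the start and CCAAT 88 bases before it, with no match to CCNCNCCC. The shorter run CACCC does occur in that window but was not among the words searched. The Alas2 window held AGATAA on the minus strand, read as TTATCT on the plus strand, 86 bases before the start. It also held 4 matches to CCNCNCCC on the minus strand, 42, 40, 35 and 26 bases before the start, of which some overlap. Of all 32841 windows of this length, 7.94% held TGATAA, 9.99% held AGATAA, 45.9% held CCNCNCCC and 33.9% held CCAAT. Windows that held either GATA word together with CCNCNCCC, as the Alas2 window did, made up 4.52%. These matches describe the letters and nothing more.

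The Hba-a1 window and that of its neighbouring copy Hba-a2 shared an identical run of 247 of their 250 bases. Hba-a2 has no row of its own in the table, and the beta-globin genes Hbb-b1 and Hbb-b2 are close copies that also differ between inbred strains. Each globin value is therefore the signal of the probe for that row, and the copy that gave it is uncertain.

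Set against control, the PB livers had lower mean levels of all 4 members. Slc4a1 averaged 5.88 ± 0.70 (SD, n = 4) in controls and 4.68 ± 0.25 (SD, n = 5) in PB, a difference of -1.20 ± 0.26 (SE). Hbb-b1 averaged 7.90 ± 0.53 and 6.93 ± 0.36, a difference of -0.96 ± 0.29. For Hba-a1 the means were 12.76 ± 0.36 and 12.01 ± 0.59, which differed by -0.75 ± 0.33. Alas2 averaged 10.32 ± 0.89 and 9.93 ± 0.70, and its difference of -0.39 ± 0.40 was smaller than the SD of either group. On the linear scale Hbb-b1, Hba-a1 and Alas2 were 1.95-fold, 1.68-fold and 1.31-fold lower in PB. No fold is given for Slc4a1, which was not detected on 3 of the 5 PB arrays. After normalisation, Slc4a1 and Hbb-b1 had no overlap between the groups, which held for 1.91% of all tested genes in that direction and 1.57% in the other. The contrast chose the members, so nothing is read from those shares.

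Set against the same 4 control arrays, the DCA livers had lower mean levels of 3 members and a higher mean of Alas2. Slc4a1 averaged 4.82 ± 0.20 (SD, n = 4) in DCA, which was -1.06 ± 0.28 (SE) from control. Hbb-b1 averaged 6.77 ± 0.56, a difference of -1.12 ± 0.30. Hba-a1 averaged 11.88 ± 0.67, a difference of -0.89 ± 0.35. Alas2 averaged 10.87 ± 0.38, and its difference of 0.55 ± 0.43 was within the spread of the controls. Slc4a1 alone had no overlap with control, against 1.35% of all tested genes in that direction and 1.06% in the other. The median over the members was -0.86 for PB and -0.97 for DCA, and over all tested genes it was -0.01 for both, with 51.0% of genes lower in each comparison. Because the 2 comparisons use the same controls, their likeness is no separate evidence.

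These sizes depended on the controls and on the background correction. Without control replicate 4, the difference of Slc4a1 was -0.89 for PB and -0.75 for DCA, and without control replicates 2 and 4 together it was -0.67 and -0.53, with Hbb-b1 then at -0.57 and -0.73 and Alas2 at -0.21 and 0.72. With the background fitted on all rows, Slc4a1 differed by only -0.22 and -0.20, and with no background correction by -0.39 and -0.35, while Hbb-b1 differed by -0.61 and -0.68 with no correction. In the authors' normalised values Slc4a1 differed by -0.41 and -0.37 and Hbb-b1 by -0.63 and -0.71. Under median scaling Hba-a1 was at -1.27 in PB against control and Alas2 at -0.86, on a scale where the median of all genes was itself at -0.26. For Alas2, leaving out control replicate 1 gave -0.75 in PB and 0.19 in DCA, and leaving out control replicate 3 gave -0.15 and 0.79. With arrays weighted by quality, Alas2 in DCA was 0.35 above control.

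**Figure D2:**
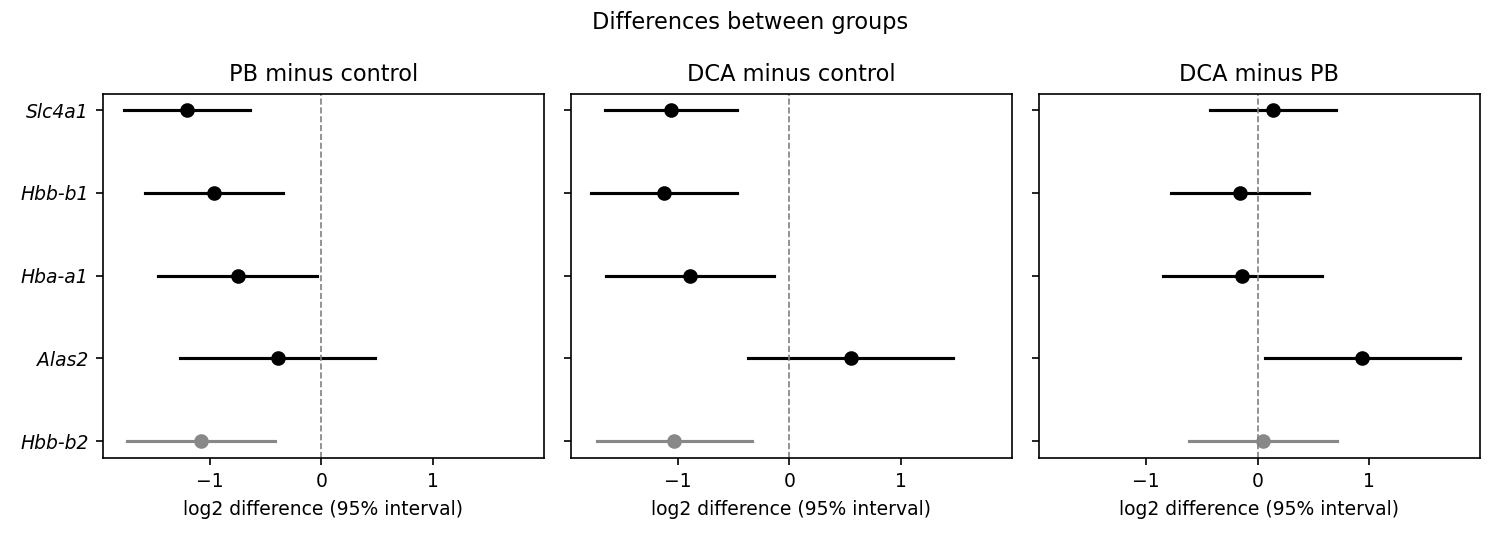
Fitted log2 differences (points) with 95% intervals (lines) for the 4 members in black and for Hbb-b2 in grey, in each of the 3 comparisons. Slc4a1, Hbb-b1 and Hba-a1 lie to the left of 0 for both exposures against control, between -1.20 and -0.75, and near 0 between DCA and PB. Those left-hand intervals are a description, since the members were chosen on these contrasts.

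The exposed groups were compared with each other directly. By limma with Benjamini-Hochberg adjustment over all 8431 genes, 0 of the 4 members passed an adjusted p of 0.05, against 0.107% of all tested genes (9 genes). At an unadjusted p under 0.05 there was 1 member of 4, Alas2, where 14.5% of all tested genes were under it. None of the members had separate DCA and PB groups, where 2.91% of all tested genes had every DCA mouse below every PB mouse and 3.07% the reverse. DCA minus PB was 0.14 for Slc4a1 (95% interval -0.42 to 0.70, adjusted p = 0.841), -0.16 for Hbb-b1 (-0.78 to 0.46, adjusted p = 0.833) and -0.14 for Hba-a1 (-0.85 to 0.57, adjusted p = 0.877). For the 2 globins these intervals reach down to -0.78 and -0.85 and up to 0.46 and 0.57, so the groups are not shown to be alike. Leaving out DCA replicate 2 turned the sign for Hba-a1 to 0.11 and leaving out DCA replicate 3 turned that for Hbb-b1 to 0.07. Both signs also turned under median scaling, to 0.42 for Hba-a1 and 0.29 for Hbb-b1, where the median of all genes was at 0.34.

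Alas2 was 0.94 ± 0.40 (SE) higher in DCA than in PB on the log2 scale, or 1.92-fold, with a 95% interval of 0.07 to 1.81. Its limma p was 0.0366 before adjustment and 0.311 after it, so it did not pass. All 4 DCA mice lay above PB replicates 1, 3, 4 and 5, and PB replicate 2 (10.57) fell between DCA replicates 4 (10.51) and 3 (10.58). With each array left out in turn, the difference ranged from 0.70 without PB replicate 1 to 1.10 without PB replicate 2. The lowest limma adjusted p in any of these was 0.245. With arrays weighted by quality the difference was 0.73, with a limma adjusted p of 0.164. Under median scaling it was 1.16 relative to the median of all genes.

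By residual SD pooled over the groups, a measure that the group differences do not enter, the members were among the more variable genes of these livers. The residual SD was 0.43 for Slc4a1, 0.48 for Hbb-b1, 0.56 for Hba-a1 and 0.69 for Alas2, against a median of 0.27 over tested genes. These are the percentiles 82.9, 87.6, 92.6 and 96.7 of all tested genes. For Slc4a1 the value came mostly from the controls, where the SD was 0.70. It was 0.20 in DCA and 0.25 in PB, where levels were near background. From the lowest to the highest mouse, Hbb-b1 spanned 5.59-fold, Hba-a1 3.93-fold and Alas2 4.74-fold. The lowest Slc4a1 value was not above background, so no span is given for it.

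Across the 13 mice the levels of Slc4a1, Hbb-b1 and Hba-a1 were correlated when group differences were left in, and with group means removed only Slc4a1 and Hbb-b1 passed the test. Pearson's r was 0.92 between Slc4a1 and Hbb-b1, with an adjusted p of 0.00012 by permutation over 6 pairs and Spearman's rho also 0.92 (adjusted p = 0.00024). Between Hbb-b1 and Hba-a1, r was 0.80 (permutation, adjusted p = 0.00225) and rho 0.84 (adjusted p = 0.0021). Between Slc4a1 and Hba-a1, r was 0.67 (permutation, adjusted p = 0.0160) and rho 0.69 (adjusted p = 0.0236). Without the 2 mice farthest from the median of the first gene named, these r values were 0.82, 0.80 and 0.69.

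The group differences on which the members were chosen enter these values and their p-values, so they are no independent support. With each group's mean removed and mice permuted within groups, r was 0.84 between Slc4a1 and Hbb-b1 (permutation, adjusted p = 0.00042), and this pair still passed. The others did not: r was 0.66 between Hbb-b1 and Hba-a1 (permutation, adjusted p = 0.0696) and 0.41 between Slc4a1 and Hba-a1 (adjusted p = 0.172). Pooled within groups, mice with more band 3 signal thus tended to have more beta-globin signal. Slc4a1 varied mainly among the 4 controls (SD of 0.70, against 0.20 in DCA and 0.25 in PB). It was detected on only 3 of 4 DCA and 2 of 5 PB arrays. Single mice were not left out with group means removed, so the weight of any 1 control in this r was not tested.

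Alas2 had an r of 0.01 with Slc4a1, -0.06 with Hbb-b1 and -0.12 with Hba-a1 (permutation, adjusted p = 0.982 for each), with rho of 0.12, -0.09 and -0.23. Leaving out each mouse in turn gave between -0.43 and 0.19 over these 3 pairs, and the lowest adjusted p was 0.236. With group means removed, r was -0.06, 0.01 and -0.09. Of the members, Alas2 had the highest correlation with the brightness of the array: r with the log2 mean raw intensity was 0.50 (permutation p = 0.0843, adjusted p = 0.337 over the 4 members), rho was 0.63 (p = 0.0229, adjusted p = 0.0916), and r was 0.29 without the 2 farthest arrays. For the other 3 members r with brightness was between -0.00 and 0.04. Their rho was 0.45 for Slc4a1, 0.25 for Hbb-b1 and 0.09 for Hba-a1 (permutation, adjusted p = 0.262, 0.552 and 0.778). With group means removed, r was -0.34, -0.10 and -0.03.

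**Figure D3:**
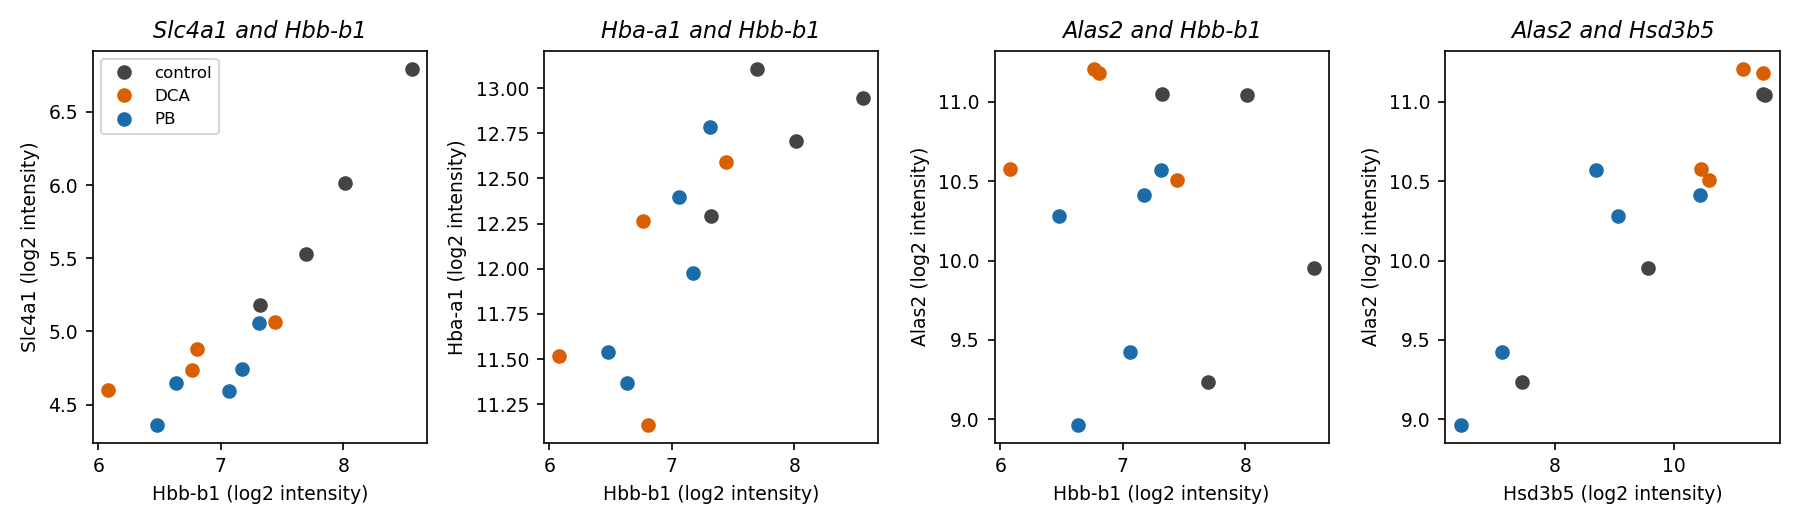
Each point is 1 mouse, coloured by group, and both axes give log2 intensity. Slc4a1 and Hba-a1 rise with Hbb-b1 (r of 0.92 and 0.80), Alas2 shows no such relation to Hbb-b1 (r of -0.06), and Alas2 rises with Hsd3b5 (r of 0.94).

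Among the genes whose pattern was most like the 4 members, by mean r with all 4 over 13 mice and group means removed, were Fbxo44 (0.62), A430107D22Rik (0.59), Mpped1 (0.58) and 2410002I01Rik (0.57). Serpinf2, 1110039B18Rik, Gmppa, Zfpl1 and EG330503 followed at 0.55 to 0.56. Without the removal, they included Serpinf2 (0.65), Rom1 (0.64) and Hbb-b2 (0.64), then LOC100046232, A430107D22Rik, Icos, Acat1, Arhgdib and Pcdh1 at 0.59 to 0.61. Fbxo44 was detected on only 4 arrays and Mpped1 on 5, with highest levels of 4.95 and 5.20, so their patterns lie near background. These are descriptions over 13 arrays, and a mean over 4 members is held down by Alas2.

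Hbb-b2, the minor adult beta-globin and the only other globin that was tested, was detected on all 13 arrays. It averaged 7.12 ± 0.58 (SD, n = 4) in controls, 6.09 ± 0.38 (n = 4) in DCA and 6.05 ± 0.55 (n = 5) in PB. Every exposed mouse lay below every control mouse, from 6.62 to 7.91 in controls, from 5.71 to 6.57 in DCA and from 5.21 to 6.55 in PB. Such a separation in that direction held for 1.91% of all tested genes in PB and 1.35% in DCA. In the deposited intensities before any correction the groups overlapped. DCA replicate 1 (252.8 units) and PB replicate 4 (219.3) lay above the lowest control, replicate 2 (206.2). Hbb-b2 is a close copy of Hbb-b1 and was set against the same controls, so it is no separate evidence. The differences, -1.08 ± 0.31 (SE) for PB and -1.03 ± 0.32 for DCA, did not pass limma's adjusted test (adjusted p = 0.265 and 0.995). As measured, its r was 0.90 with Slc4a1, 0.93 with Hbb-b1, 0.77 with Hba-a1 and -0.05 with Alas2.

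Because the r of Alas2 with the other members was near 0, its own nearest genes were looked up after these values had been seen. With group means removed, they were OTTMUSG00000000231 (r of 0.96), Cyp2d9 (0.95), Hsd3b5 (0.93), Selenbp2 (0.93), EG241041 (0.93) and C6 (0.92), followed by Fblim1, Col14a1, Ccnd2 and Elovl3 at 0.87 to 0.90. Hsd3b5 encodes a hydroxysteroid dehydrogenase of male mouse liver, Cyp2d9 a cytochrome P450, C6 a terminal complement component and Elovl3 a fatty acid elongase. As measured, r of Alas2 with Hsd3b5 was 0.94 and with Selenbp2 0.93, whereas Hsd3b5 had an r of 0.16 with Slc4a1, 0.07 with Hbb-b1 and -0.09 with Hba-a1.

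Hsd3b5 varied widely within groups, as Alas2 did. It was at 7.44, 11.53, 11.50 and 9.57 in control replicates 1 to 4, with replicates 1 and 4 low and 2 and 3 high, as for Alas2. It was between 10.47 and 11.51 in the DCA mice and between 6.41 and 10.45 in the PB mice, and DCA minus PB was 2.59 ± 0.86 (SE), which did not pass limma's adjusted test (adjusted p = 0.227). In the opposite direction, Cyp2c39, another cytochrome P450, had an r of -0.86 with Alas2 as measured and -0.81 with group means removed.

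The rest of the erythroid, haem and iron genes were taken from lists assembled with earlier results known: 92 genes besides the members were in the table, of which 54 were tested. None passed limma's adjusted test in PB against control (background 0.0830%, 7 genes), in DCA against control (0 genes, background 0%) or in DCA against PB. At an unadjusted p under 0.05 there were 7, 2 and 6 of the 54, beside 10.1%, 4.39% and 14.5% of all tested genes. Lower in PB than in control were 33 of 54, with a median of -0.04, and lower in DCA were 31, with a median of -0.02. These stand beside 51.0% of all genes and a median of -0.01.

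Among 9 tested genes of the red cell membrane and cytoskeleton, 5 were lower in PB and 7 in DCA than in control, with medians of -0.11 and -0.08. The genes described, taken by mean intensity as a rule for naming only, are Cd59a, which shields cells from complement, Aqp1, the water channel, Slc2a1, the glucose transporter GLUT1, and Tspan33, a tetraspanin of erythroid cells. Cd59a differed from control by 0.02 ± 0.15 (SE) in PB and -0.14 ± 0.16 in DCA, and Aqp1 by 0.03 ± 0.29 and 0.30 ± 0.30. Slc2a1 was at -0.52 ± 0.17 in PB and -0.07 ± 0.18 in DCA, and Tspan33 at -0.68 ± 0.24 and -0.10 ± 0.25. Neither passed limma's test in PB against control (adjusted p = 0.361 and 0.384), and several of these genes are also expressed in other liver cells.

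Of 7 tested transcription and signalling genes, 3 were lower in PB and 5 in DCA. Klf1 averaged 5.99 ± 0.35 (SD, n = 4) in controls, 6.16 ± 0.23 (n = 4) in DCA and 5.91 ± 0.23 (n = 5) in PB, with differences of 0.16 ± 0.19 (SE) and -0.08 ± 0.18 from control. Its r with the members was -0.11 for Slc4a1, -0.21 for Hbb-b1, -0.03 for Hba-a1 and -0.02 for Alas2. The cofactors Ldb1 and Lmo2, which join Gata1 in a complex, differed from control by 0.16 ± 0.23 and -0.15 ± 0.25 in PB and by -0.31 ± 0.24 and -0.06 ± 0.26 in DCA. Stat5a, a messenger below the erythropoietin receptor, differed by 0.19 ± 0.13 in PB and 0.01 ± 0.14 in DCA.

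Among 10 tested enzymes and maturation genes, 8 were lower in each exposed group, with a median of -0.08 in both. Gpx1, the glutathione peroxidase, differed by -0.89 ± 0.47 (SE) in PB and -0.07 ± 0.49 in DCA. Bnip3l, which helps reticulocytes clear mitochondria, differed by -0.17 ± 0.16 and -0.02 ± 0.17. Prdx2, a peroxiredoxin abundant in red cells, differed by -0.07 ± 0.22 and 0.23 ± 0.24, and Slc25a38, the mitochondrial glycine carrier for haem synthesis, by -0.06 ± 0.22 and -0.03 ± 0.23.

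Of 9 tested genes of haem synthesis, 7 were lower in PB and 5 in DCA. Alas1, the form of the enzyme that hepatocytes use, differed from control by -0.46 ± 0.21 (SE) in PB and -0.16 ± 0.22 in DCA, and limma's adjusted p was 0.478 and 0.995. Its r with Alas2 was -0.06 as measured and -0.35 with group means removed. Alad, which makes porphobilinogen, differed by 0.30 ± 0.17 and 0.20 ± 0.18. Urod, the uroporphyrinogen decarboxylase, differed by -0.28 ± 0.11 and -0.13 ± 0.12, and Tmem14c, a porphyrinogen transporter, by -0.06 ± 0.11 and 0.16 ± 0.12. Between DCA and PB none of the 9 passed the test.

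Of 19 tested genes of iron and haem handling, 10 were lower in PB and 6 in DCA than in control. Fth1, the ferritin heavy chain, differed by 0.27 ± 0.13 (SE) in PB and -0.02 ± 0.13 in DCA. Hpx, haemopexin, which binds free haem, differed by -0.03 ± 0.19 and 0.33 ± 0.21, and Hp, haptoglobin, which binds free haemoglobin, by 0.04 ± 0.22 and -0.04 ± 0.23. Trf, the plasma iron carrier transferrin, differed by 0.05 ± 0.43 and 0.57 ± 0.45. Hamp2, a relative of the iron hormone hepcidin that was picked after its values were seen, had the lowest p of the lists. It averaged 8.22 ± 0.84 (SD, n = 4) in controls, 9.20 ± 0.42 (n = 4) in DCA and 11.09 ± 1.11 (n = 5) in PB. The difference of PB from control was 2.86 ± 0.51 (SE), and limma's adjusted p of 0.0649 missed the threshold; it was 0.0434 without PB replicate 4 and 0.0479 with arrays weighted by quality. Hamp itself differed by -0.05 ± 0.36 in PB and 0.00 ± 0.38 in DCA.

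**Figure D4:**
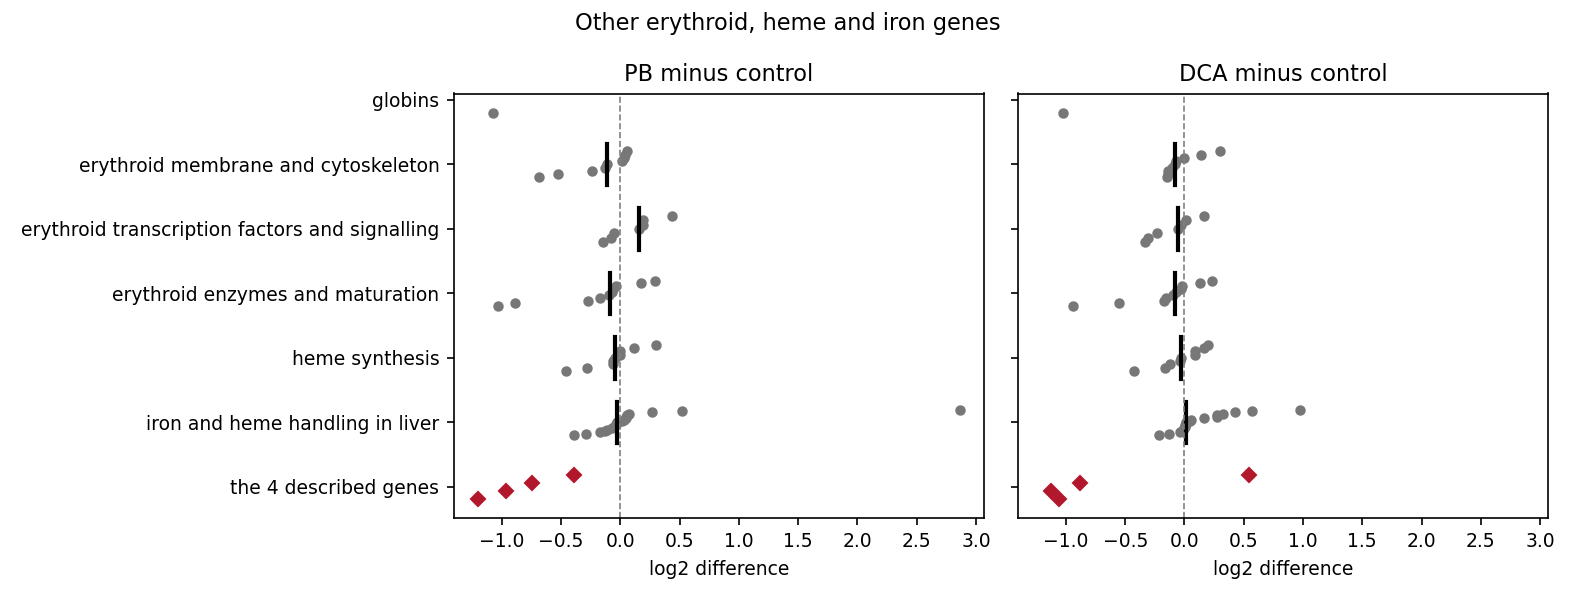
Each grey point is the fitted log2 difference of 1 tested gene of a list, black bars are list medians and red diamonds are the 4 members, for PB and for DCA against control. List medians lie between -0.11 and 0.16 for the lists of 7 or more genes, Hbb-b2 alone stands for the globins at -1.08 and -1.03, and the point at 2.86 is Hamp2.

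Markers of other blood cells also differed between these arrays. The counts of lower genes below stand beside 51.0% of all tested genes that were lower in each exposed group than in control. In the platelet list, 6 of 6 tested genes were lower in PB and 5 of 6 in DCA than in control, with medians of -0.57 and -0.61. None passed limma's adjusted test, and 0 had an unadjusted p under 0.05, beside 10.1% of all tested genes in PB and 4.39% in DCA. Its mean level was 4.64 to 6.68 in controls, 4.67 to 4.75 in DCA and 4.63 to 4.83 in PB, and the value of 6.68 was that of control replicate 4, the mouse with the highest Slc4a1 and Hbb-b1. The other 3 controls lay between 4.64 and 4.92. Itga2b and Gp9, defining platelet receptors, were detected on 13 and 12 arrays, and Ppbp and Treml1 on 4 each.

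In the neutrophil list, 4 of 4 tested genes were lower in each exposed group, with medians of -0.61 for PB and -0.63 for DCA. None passed limma's adjusted test, and 1 of 4 in PB and 0 in DCA had an unadjusted p under 0.05, beside 10.1% and 4.39% of all tested genes. Its mean level was 5.84 to 8.13 in controls, 5.75 to 6.68 in DCA and 5.46 to 6.74 in PB. Control replicate 2 was at 8.13 and control replicate 4 at 7.64, and these 2 were also the highest mice for Slc4a1 and Hbb-b1. S100a8 and S100a9, which mark mature neutrophils, were detected on 12 and 10 arrays, whereas the precursor genes Ngp and Camp were detected on 0 and 1. The part of these cells in the differences of the members was not tested. Without those 2 controls, the median over the members was -0.62 in PB and -0.63 in DCA.

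The Kupffer cell list, for the resident macrophages of liver, had 9 of 9 tested genes lower in PB, with a median of -0.17. In DCA it had 2 of 9 lower, with a median of 0.09. The list had 0 genes at an unadjusted limma p under 0.05 in either, beside 10.1% and 4.39% of all tested genes. Its mean level was 6.68 to 8.17 in controls, 6.91 to 7.28 in DCA and 6.07 to 7.25 in PB, again highest in control replicate 2. The other controls lay between 6.68 and 6.79. PB replicates 2, 4 and 5 were above these, at 7.14, 7.03 and 7.25, replicate 3 was among them at 6.74 and replicate 1 below at 6.07. The hepatocyte list was nearly level, at 11.61 to 11.88 in controls, 11.83 to 11.87 in DCA and 11.64 to 11.97 in PB.

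**Figure D5:**
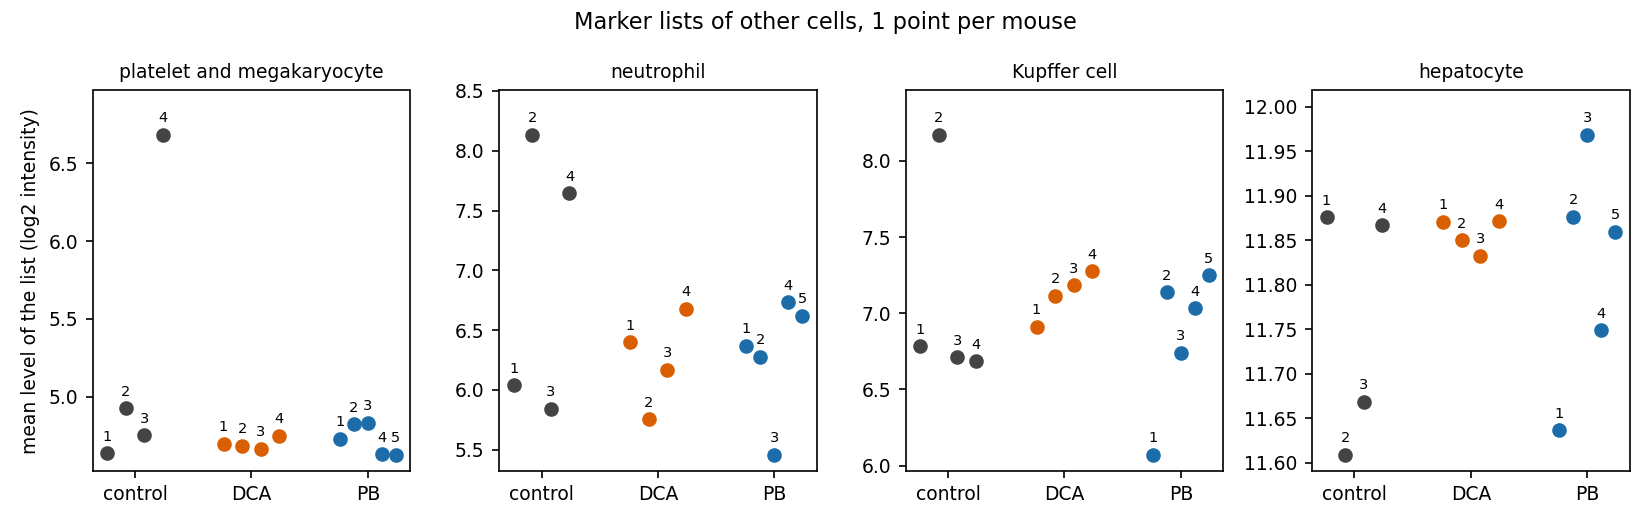
Mean log2 level of the tested genes of each marker list (vertical axes, a separate range in each panel) for every mouse, numbered by replicate. Control replicate 4 stands alone for platelet genes at 6.68, control replicates 2 and 4 are highest for neutrophil genes, and hepatocyte genes span 11.61 to 11.97.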

How the data were processed

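Total RNA from 13 mouse livers was measured on Illumina bead arrays. The authors deposited a table of non-normalised intensity per gene with a detection p-value, exported with GenomeStudio (of a version that the sources do not give) per the submitters' processing notes, and a table of the authors' normalized values. Of its 18138 rows, 4470 combine several probes, judged by detection p-values that are not whole multiples of 1 in 798 (tolerance 0.001). Background was fitted by normexp (offset 16) from the 13668 single-probe rows, followed by log2 and quantile normalisation, in limma 3.58.1 with R 4.3.3. Genes detected (p under 0.05) on at least 4 arrays, 8431 in all, entered lmFit and eBayes on group means, two-sided, with Benjamini-Hochberg adjustment and a threshold of 0.05. Correlations used 100000 permutations. The members and gene lists were chosen with earlier results of these data known. Named genes are the members, the up to 4 list genes with the highest mean level, any past the threshold, and the 10 nearest by mean r; some are not reported here. Alternatives changed the background, normalisation, filter, weights and arrays. The number of arrays limits the precision. Files and labels used here give no slide or scan batch.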

Additional observations from a re-analysis of the deposited data

Results flagged for a closer look

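In 30 sets of a gene or marker list within a group, the most extreme mouse was compared with its neighbours by Dixon's ratio, which chance exceeds in about 1 of 20 sets. Such a mouse was found in 2 of the 30 sets, which is near that rate. None of the 4 members had such a mouse in any group. Control replicate 4 stood apart for the platelet list, at 6.68 where the next control was at 4.92. Control replicate 2 stood apart for the Kupffer cell list, at 8.17 where the next control was at 6.79.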

How the results depend on the processing

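The median difference of the members from control kept its sign under every alternative: -0.59 and -0.51 (PB, DCA) with background from all rows, -0.50 and -0.52 with none, -0.52 and -0.54 with the authors' values, -1.24 and -0.93 with median scaling. It was -0.96 and -1.06 without Alas2, an alternative chosen after seeing the data, as was leaving out control replicates 2 and 4. Leaving out each array in turn gave -1.03 to -0.71 for PB, -1.17 to -0.79 for DCA, and -0.16 to 0.14 for DCA minus PB. The count of members passing between DCA and PB was 0 under each alternative run, 0 to 0 without each array. With only the 5361 genes detected on all arrays, Slc4a1 dropped out. Other erythroid, haem and iron genes passing rose from 0 to 1 with array weights and to 1 without PB replicate 4 in PB against control (Hamp2, range 0 to 1 over arrays left out), and to 2 with array weights in DCA against PB (Hamp2 and Tmprss6). For DCA against control the range was 0 to 0. Of the 6 pairs of members, 3 passed with all arrays and with each array left out (3 to 3), and 1 with group means removed, where r was 0.41 for Slc4a1 with Hba-a1 and 0.66 for Hbb-b1 with Hba-a1; the cause was not tested. No paired analysis was possible because the replicate numbers follow accession order and pair no mice. The slide as a block was not run, since no slide is given. Levels near 4.6 are close to background, which limits Slc4a1.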

Other observations

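Lists of other liver and blood cells gave the following counts. Sinusoidal endothelial genes had 5 of 8 tested genes higher in PB than in control (median 0.24) and 6 of 8 higher in DCA (median 0.20). Stellate cell genes were higher in 4 of 6 and 5 of 6 (medians 0.02 and 0.21). T cell genes were higher in PB in 4 of 4 (median 0.17) and in DCA in 1 of 4 (median -0.07). Hepatocyte genes were higher in 5 of 7 in each (medians 0.06 and 0.06). Cholangiocyte and proliferation genes had 2 tested genes each, with medians of -0.04 and 0.15 in PB and -0.13 and 0.09 in DCA, and no B cell gene was tested. These counts stand beside 51.0% of all tested genes that were lower than control in each exposed group. By limma with adjustment over all tested genes, 0 genes of these lists passed in either comparison with control, beside 0.0830% in PB and 0% in DCA. At an unadjusted p under 0.05 there were also 0, beside 10.1% and 4.39% of all tested genes.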
